A study of Mus musculus with 6 samples.

Results

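The interferon-response and MHC class I genes described here were 9 genes, *Bst2*, *Ifitm1*, *Ifitm2*, *Ifitm3*, *Isg15*, *Irf7*, *B2m*, *H2-K1* and *H2-D1*, found by symbol among the 55416 genes of the count table. They were measured by low-input RNA-Seq (SMART-seq2) of mGFP+ coronary endothelial cells (ECs) sorted from mouse heart ventricles at E15.5, with 3 libraries from Wt1KOΔEC embryos (Wt1-LoxP/LoxP) and 3 from ControlΔEC embryos (Wt1-+/+). Both groups carried Pdgfb-CreERT2/+ and R26-mTmG/+, both came from dams given tamoxifen by gavage at 75 mg/kg between E11.5 and E13.5, and the matings gave both genotypes in 1 litter. Cre was driven by *Pdgfb*, which is used by endothelium beyond the coronary plexus, so the gate selected recombined cells rather than a vessel type. By immunostaining at E15.5 under this tamoxifen scheme, the paper found mGFP+ CD31+ cells in arteries and veins of the compact myocardium. It saw none in epicardium or ventricular endocardium. The paper also reported cardiomyocyte, epicardial and fibroblast genes at relatively low counts in the sorted cells. The labels call the libraries biological replicates but do not give the embryos behind each. Library names begin with AT in all 3 ControlΔEC libraries and with AU in all 3 Wt1KOΔEC libraries. Whatever goes with this naming, which the labels do not explain, cannot be told apart from genotype. All 9 genes passed the filter of at least 10 counts in at least 2 libraries, together with 16296 genes in all.

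The libraries held 26037324 to 44779020 counts, so that 3 counts, the level that a count of 0 allows, corresponded to 0.0608 to 0.119 CPM (counts scaled to the TMM-adjusted library size). *Wt1* was at 145, 109.6 and 149 CPM in ControlΔEC and at 14.0, 18.4 and 21.3 CPM in Wt1KOΔEC (adjusted p = 0.00319, log2 fold change -2.91). All 12 endothelial markers were detected, among them *Pecam1* and *Cdh5*, and their sums overlapped between genotypes (6817 to 8539 CPM in ControlΔEC and 7058 to 8027 CPM in Wt1KOΔEC). *Rn18s* took 13.2 to 15.3% of the counts in ControlΔEC and 21.1 to 26.5% in Wt1KOΔEC, and mitochondrially encoded genes took 5.21 to 6.61% and 1.68 to 4.57%. When these genes were left out of the fit, *Bst2* had a log2 fold change of 1.33, *Ifitm2* of 0.52 and *Ifitm3* of 0.51, as in the fit with them. That fit still tested 16280 genes under the same scaling method, so little change could arise. It cannot show whether what differs between the libraries bears on these genes.

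Type I interferons signal through the receptor chains IFNAR1 and IFNAR2, the kinases JAK1 and TYK2, and a complex of transcription factors that binds the interferon-stimulated response element (ISRE) in the promoters of target genes. Interferon gamma acts through the gamma-activated sequence (GAS). Among the targets are membrane proteins that restrict virus entry or release, and the MHC class I heavy chains, which pair with beta-2 microglobulin to present peptides at the surface. Endothelial cells express class I molecules without stimulation and increase them in response to interferon.

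The promoters of these genes are shown because they carry the letters through which such signals act. Promoter sequences of RefSeq on GRCm38.p6, 250 bases before to 50 after each start site, were found for all 9 genes and searched on both strands. The ISRE core, spelled GAAANNGAA, was present in 5 of the 9 (*Bst2*, *Ifitm2*, *Ifitm3*, *Isg15* and *B2m*), against 8.56% of 32851 promoters of all genes and 52.6% of 97 promoters of other interferon-stimulated genes. The core in its other arrangement, GAANNGAAA, a spelling added after the sequences had been read, was present in *Isg15*, *H2-K1* and *H2-D1*, against 7.52% of all promoters. The GAS spelling TTCNNNGAA was present in *Bst2* and *Ifitm3* (8.3% of all promoters). A spelling that resembles a WT1 site, GNGTGGGNG, was present in *Ifitm1* and *Irf7* (14.3% of all promoters) and not in the window of *Bst2*. The 6 promoters that follow run 5′ to 3′ on the strand of the gene from 150 bases before to 30 after the start site, with every letter of an ISRE core, its other arrangement or a GAS in capitals.
*Bst2* (chr8:71537443-71537622, minus strand): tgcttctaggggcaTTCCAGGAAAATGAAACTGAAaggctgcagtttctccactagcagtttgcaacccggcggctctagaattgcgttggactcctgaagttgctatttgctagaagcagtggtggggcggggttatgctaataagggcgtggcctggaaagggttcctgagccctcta
*Isg15* (chr4:156200789-156200968, minus strand): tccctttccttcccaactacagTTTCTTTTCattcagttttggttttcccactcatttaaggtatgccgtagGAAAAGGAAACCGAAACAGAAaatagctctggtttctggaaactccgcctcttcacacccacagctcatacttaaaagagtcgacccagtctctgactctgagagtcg
*Ifitm3* (chr7:141010715-141010894, minus strand): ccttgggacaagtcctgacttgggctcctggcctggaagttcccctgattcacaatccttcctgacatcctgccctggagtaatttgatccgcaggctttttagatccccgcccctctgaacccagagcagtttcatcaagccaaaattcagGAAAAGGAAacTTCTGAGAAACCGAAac
*B2m* (chr2:122147537-122147716, plus strand): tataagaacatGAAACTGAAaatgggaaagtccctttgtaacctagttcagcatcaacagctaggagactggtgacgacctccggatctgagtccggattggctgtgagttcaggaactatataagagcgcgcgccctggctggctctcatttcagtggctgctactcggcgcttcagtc
*H2-K1* (chr17:34000318-34000497, minus strand): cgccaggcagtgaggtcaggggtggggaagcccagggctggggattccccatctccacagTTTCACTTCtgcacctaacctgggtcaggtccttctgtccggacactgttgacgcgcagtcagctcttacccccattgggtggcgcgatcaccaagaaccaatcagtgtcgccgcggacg
*H2-D1* (chr17:35262944-35263123, plus strand): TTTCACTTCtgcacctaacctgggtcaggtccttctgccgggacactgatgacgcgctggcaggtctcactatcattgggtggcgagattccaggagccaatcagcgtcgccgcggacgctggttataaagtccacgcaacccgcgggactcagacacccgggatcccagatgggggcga
In *Bst2* a GAS and 2 overlapping ISRE cores formed 1 run of capitals, with the cores 130 and 124 bases before the start. *Isg15* held 3 cores in a row, at 78, 72 and 66 bases before the start, and *Ifitm3* held 2 cores just after the start, the second of which overlaps its GAS. *H2-K1*, shown at the first of 2 listed starts, and *H2-D1* shared a run of 47 identical bases that ends just before the TTTCACTTC printed in capitals, which is GAANNGAAA read on the other strand. These matches are descriptions of letters in a window, and no factor binding was measured.

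In ControlΔEC the 9 genes fell into an abundant and a scarce set. Per kb of exonic length, *B2m* was the highest (127 ± 18.6 CPM per kb, SD, n = 3), followed by *Ifitm2* (113 ± 13.9), *H2-D1* (83.4 ± 34.6), *Ifitm3* (56.5 ± 4.56), *H2-K1* (42.5 ± 5.23) and *Bst2* (20.0 ± 4.26). *B2m* ranked 185 per kb among the 16238 tested genes with a known length. *Ifitm1* (1.45 ± 1.44 CPM per kb), *Isg15* (1.20 ± 0.33) and *Irf7* (0.805 ± 0.408) were scarce. Neighbours in this order overlapped between libraries from *B2m* down to *Ifitm3* and again from *Ifitm1* to *Irf7*, while *Ifitm3* and *H2-K1*, *H2-K1* and *Bst2*, and *Bst2* and *Ifitm1* did not overlap. The 6 abundant genes thus ranked from 185 to 1381 per kb, and the 3 scarce ones from 9061 to 10650.

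**Figure D1:**
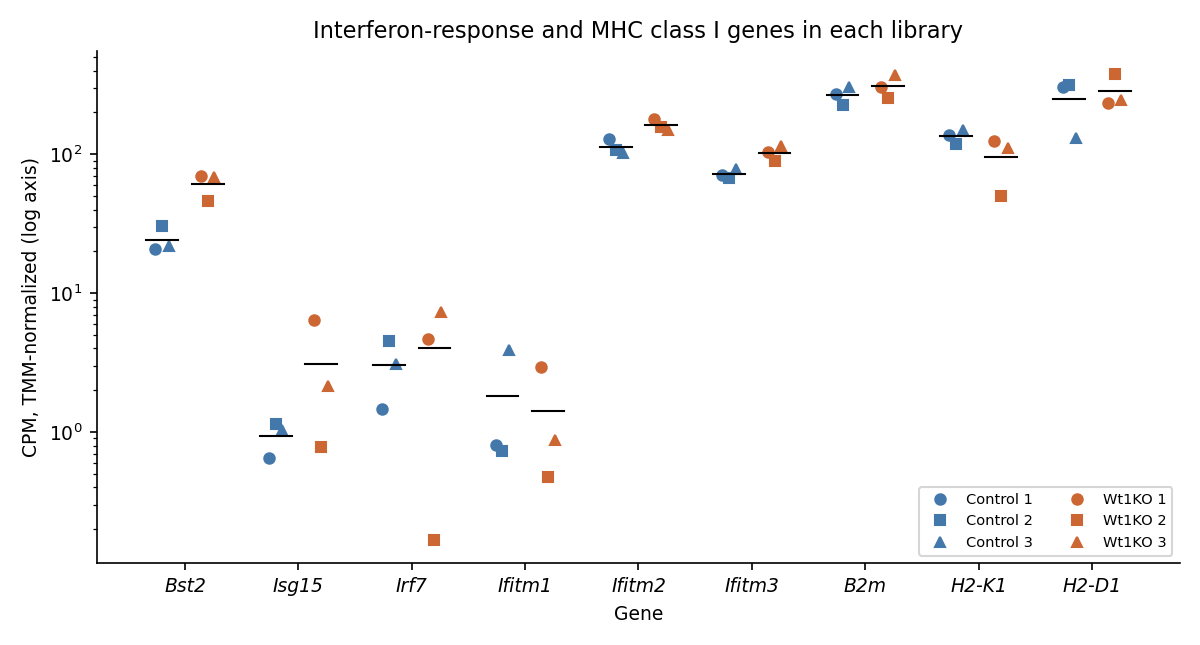
TMM-normalized CPM (log axis) of the 9 genes in each of the 3 ControlΔEC (blue) and 3 Wt1KOΔEC (orange) libraries, with marker shapes for the replicate number and black lines at the group means. The genotypes separate for *Bst2*, *Ifitm2* and *Ifitm3* and overlap for the other 6 genes.

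Between the genotypes, 3 of the 9 genes, *Bst2*, *Ifitm2* and *Ifitm3*, were higher in every Wt1KOΔEC library than in every ControlΔEC library, and none was lower in this sense. Over all genes tested, 10.3% did not overlap with Wt1KOΔEC higher and 8.97% with Wt1KOΔEC lower. The same 3 genes had an unadjusted p under 0.05 (33.3% of the 9, against 13.1% of all genes tested). None of the 9 was called by edgeR's quasi-likelihood test at an adjusted p under 0.05 and a log2 fold change beyond 0.58 in either direction, where 0.0736% of all genes were called, and none was called by limma-voom. DESeq2, which called 3.68% of all genes, called 1 of the 9, *Bst2*. With 3 libraries against 3, the exact permutation test cannot give a two-sided p below 0.1.

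*Bst2* encodes tetherin, a membrane protein that holds budding virus particles at the cell surface and a marker of interferon response (chr8:71986895-71990114, GRCm39, minus strand, 1214 bases of exon). It was at 20.8, 30.2 and 21.9 CPM in ControlΔEC and at 69.3, 45.8 and 68.3 CPM in Wt1KOΔEC. The lowest Wt1KOΔEC library was above the highest ControlΔEC library. The means were 24.3 ± 5.17 and 61.1 ± 13.3 CPM (SD, n = 3), a log2 fold change of 1.33 (standard error 0.24, 95% interval 0.79 to 1.87), with an unadjusted p of 3.48e-04 in edgeR's quasi-likelihood test. Adjusted over all 16296 genes, adjusted p was 0.108 by edgeR and 0.0964 by limma-voom. DESeq2, which by default leaves some of these genes out of its adjustment, gave adjusted p = 1.27e-04, so that the call depended on the test. The filter also decided it, since edgeR gave adjusted p = 0.0348 when 10 counts were required in every library. With 1 library at a time left out, its log2 fold change lay between 1.23 (without Wt1KOΔEC 1) and 1.52 (without ControlΔEC 2).

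*Bst2* lies 22.4 kb from *Plvap*, an endothelial diaphragm gene that was looked at after its values were seen (log2 fold change 2.31, adjusted p = 0.00319). Of the 14 tested genes within 100 kb of *Bst2*, edgeR called only *Plvap*. Over all 16296 genes tested, 13.1% had an unadjusted p under 0.05 by edgeR in either direction, and 971 genes were higher at such a p. With no limit on p, 10.3% of all genes were higher with no overlap. The share that met both was not counted. At an unadjusted p under 0.05, 5 of the 14 were higher with no overlap between the genotypes. Beside *Plvap* these were *Abhd8* (log2 fold change 0.84, adjusted p = 0.268), *Mrpl34* (0.52, adjusted p = 0.344), *Pgls* (0.62, adjusted p = 0.288) and *Tmem221* (4.37, adjusted p = 0.325, from a mean of 0.197 CPM in ControlΔEC), all named after their values were seen. *Ccdc194*, which lies between *Plvap* and *Bst2*, had a log2 fold change of -0.30 (adjusted p = 0.905), and *Mvb12a*, 5419 bases beyond *Bst2*, one of 0.25 (adjusted p = 0.723).

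*Ifitm2* and *Ifitm3* encode small membrane proteins that block the fusion of enveloped viruses in endosomes, and with *Ifitm1* they lie in a cluster on chromosome 7. *Ifitm2* (chr7:140534738-140536228, minus strand, 999 bases of exon) was at 129, 108 and 103 CPM in ControlΔEC and at 180.3, 158 and 149.6 CPM in Wt1KOΔEC. Its log2 fold change was 0.52 (standard error 0.16, 95% interval 0.16 to 0.88, adjusted p = 0.243). *Ifitm3* (chr7:140589499-140591282, minus strand, 1281 bases of exon) was at 71.4, 67.0 and 78.6 CPM in ControlΔEC and at 104, 90.0 and 114 CPM in Wt1KOΔEC, with a log2 fold change of 0.51 (standard error 0.16, 95% interval 0.14 to 0.87, adjusted p = 0.252). Both were higher in all 3 Wt1KOΔEC libraries, by less than the fold change limit. DESeq2 gave adjusted p = 0.0477 for *Ifitm2* and 0.079 for *Ifitm3*.

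*Ifitm1* (chr7:140546316-140549743) was at 0.805, 0.730 and 3.88 CPM in ControlΔEC and at 2.94, 0.477 and 0.871 CPM in Wt1KOΔEC. A single high library in each genotype set its mean, and the groups overlapped (log2 fold change -0.33, adjusted p = 0.95, standard error 1.09). Its sign changed without ControlΔEC 3, to 0.90, and without Wt1KOΔEC 2, to 0.08. Because IFITM genes are similar in sequence and reads can be divided among them, the 3 were also summed per library. A summed value of 201, 176 and 185 CPM was found in ControlΔEC and of 287, 248 and 265 CPM in Wt1KOΔEC (log2 fold change 0.51, adjusted p = 0.22, standard error 0.14). Here too the genotypes did not overlap. The ratio of *Ifitm3* to *Ifitm2* per kb was 0.431 to 0.596 in ControlΔEC and 0.445 to 0.597 in Wt1KOΔEC.

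Exonic length went with the difference between the genotypes across all genes. For tested genes that averaged 10 CPM or more, the median log2 fold change was 0.30 for 122 genes of up to 1000 bases. It was 0.27 for 122 genes of 1000 to 1500 bases and 0.26 for 404 genes of 1500 to 2500 bases. For 1023 genes of 2500 to 4000 bases it was 0.19, and for 6794 genes above 4000 bases -0.05. *Ifitm2*, *Bst2* and *Ifitm3* are in the classes of up to 1500 bases. *B2m* is in that of 1500 to 2500 bases, and *H2-K1* and *H2-D1* are in that of 2500 to 4000 bases. With an offset for length and GC content the log2 fold changes were 1.25 for *Bst2* (adjusted p = 0.12), 0.41 for *Ifitm2* (adjusted p = 0.359) and 0.45 for *Ifitm3* (adjusted p = 0.307).

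*Isg15* encodes a ubiquitin-like protein that is conjugated to other proteins in interferon-treated cells (chr4:156283883-156285303). It was at 0.648, 1.14 and 1.04 CPM in ControlΔEC, from 29, 56 and 30 counts. In Wt1KOΔEC it was at 6.40, 0.786 and 2.14 CPM, from 250, 28 and 54 counts. Wt1KOΔEC 1 stood high, and Wt1KOΔEC 2 lay within the ControlΔEC range. The log2 fold change of 1.72 had a standard error of 0.94 and a 95% interval of -0.41 to 3.85 (adjusted p = 0.496), and it was 0.63 without Wt1KOΔEC 1.

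*Irf7* encodes the factor that amplifies type I interferon production (chr7:140842619-140846398). It was at 1.48, 4.56 and 3.09 CPM in ControlΔEC and at 4.68, 0.169 and 7.28 CPM in Wt1KOΔEC. The Wt1KOΔEC libraries enclosed the whole ControlΔEC range, with only 6 counts in Wt1KOΔEC 2. The log2 fold change of 0.41 had a standard error of 1.04 (adjusted p = 0.931), and limma-voom gave -0.73. The ends of *Irf7* and *Phrf1* overlap by 63 bases on opposite strands, and in these unstranded libraries the reads there cannot be told apart. The same holds for *Ifitm2*, *Ifitm3*, *Isg15*, *H2-K1* and *H2-D1*, each of which overlaps a noncoding gene model on the other strand.

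**Figure D2:**
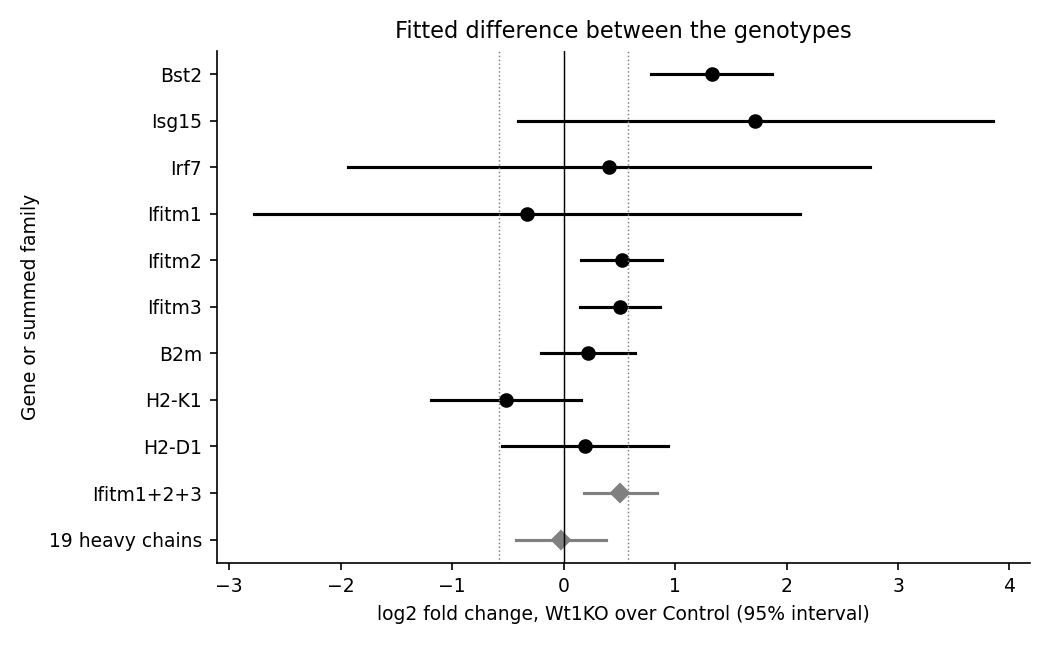
Fitted log2 fold changes of Wt1KOΔEC over ControlΔEC with 95% intervals for the 9 genes (black) and for the summed IFITM genes and 19 summed class I heavy chains (grey), in which dotted lines mark the fold change limit of 0.58 in either direction. The intervals of *Bst2*, *Ifitm2*, *Ifitm3* and the IFITM sum lie above 0, and those of the other 6 genes and of the heavy chain sum include 0.

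*B2m* encodes the light chain that all class I molecules need for their surface expression (chr2:121977957-121983594). It was at 271, 226 and 304 CPM in ControlΔEC and at 303, 256 and 374 CPM in Wt1KOΔEC. The genotypes overlapped, and the log2 fold change was 0.22 (standard error 0.19, 95% interval -0.20 to 0.64, adjusted p = 0.712). *Patl2*, which spans *B2m* on the other strand, had at most 32 counts in a library.

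*H2-K1* (chr17:34214987-34219321) and *H2-D1* (chr17:35481691-35486475), 1.27 Mb apart from end to end, encode the heavy chains of classical class I molecules. *H2-K1* was at 138, 118 and 151 CPM in ControlΔEC and at 124, 50.3 and 110.3 CPM in Wt1KOΔEC. A single ControlΔEC library lay under the highest Wt1KOΔEC library (log2 fold change -0.51, standard error 0.30, 95% interval -1.19 to 0.16, adjusted p = 0.524). Without Wt1KOΔEC 2 the log2 fold change was -0.21, and without Wt1KOΔEC 1 it was -0.76. *H2-D1* was at 305, 314 and 130.25 CPM in ControlΔEC and at 232, 378 and 245 CPM in Wt1KOΔEC (log2 fold change 0.19, adjusted p = 0.889, standard error 0.33). This sign reversed without ControlΔEC 3 (-0.12) and without Wt1KOΔEC 2 (-0.066).

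The heavy chains deviated in opposite directions in 2 libraries. ControlΔEC 3 had the highest *H2-K1* and the lowest *H2-D1*, and Wt1KOΔEC 2 the lowest *H2-K1* and the highest *H2-D1*. The ratio of *H2-K1* to *H2-D1* counts was 0.454, 0.375 and 1.16 in ControlΔEC and 0.533, 0.133 and 0.451 in Wt1KOΔEC, an overlap between the genotypes. Class I genes are a multigene family of near-identical copies, so each value is uncertain where reads could be divided among them. The 19 heavy chain genes summed were at 516, 487 and 348 CPM in ControlΔEC and at 416, 481 and 433 CPM in Wt1KOΔEC (log2 fold change -0.021, standard error 0.18, 95% interval -0.42 to 0.38, adjusted p = 0.982).

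Across the 6 libraries, log2 CPM of *Bst2* had Pearson's r of 0.887 with *Ifitm3* and 0.822 with *Ifitm2*, and *Ifitm2* and *Ifitm3* had r = 0.766. *H2-K1* and *H2-D1* had r = -0.648. These points share genotype and library, and are given without a test. Among 8471 other genes of at least 10 CPM, those most like *Bst2* were *Dmac1* (r = 0.985), *Nek6* (0.984) and *Ubl5* (0.984), those most like *Ifitm3* were *Hspb1* (0.992), *Rbms2* (0.990) and *Rab28* (0.987), and those most like *B2m* were *Tbca* (0.983), *Nsg1* (0.978) and *Ift20* (0.973). None of these 9 is on the lists of interferon or MHC genes used here.

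A list of 96 other interferon-stimulated genes held differences in both directions. Of 90 tested, edgeR and limma-voom called none and DESeq2 called 5 higher and 2 lower. At an unadjusted p under 0.05, 16 were higher and 4 lower (22.2%, against 13.1% of all genes tested). The median log2 fold change was 0.23, beside -0.03 over all genes tested, and 17 genes did not overlap with Wt1KOΔEC higher and 4 with Wt1KOΔEC lower, where 10.3% and 8.97% of all genes did so. The filter admits genes with counts in 2 libraries alone. Among the 63 with 10 counts in every library the median was 0.15, with 13 higher and 7 lower at an unadjusted p under 0.05, which 16.2% of all genes in that fit had.

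Many of these genes stood highest in Wt1KOΔEC 1. That library held the highest value for 34 of the 90 genes (37.8%) and for 15.3% of all genes tested. Without it, 5 genes were higher and 3 lower of 87 tested at an unadjusted p under 0.05, where 8.43% of all genes passed, and the median log2 fold change was 0.07. Without Wt1KOΔEC 2, 14 were higher and 3 lower of 88 (9.77% of all genes), and without Wt1KOΔEC 3, 11 were higher and 3 lower of 88 (9.61% of all genes). *Rsad2*, the antiviral enzyme viperin, was at 6.77, 1.5 and 9.19 CPM in ControlΔEC and at 71.8, 12.4 and 11.4 CPM in Wt1KOΔEC (log2 fold change 2.46, standard error 0.83, adjusted p = 0.271). *Ifih1*, an RNA sensor that was singled out after its values were seen, was at 0.715, 6.75 and 1.87 CPM in ControlΔEC and at 26.1, 7.70 and 9.58 CPM in Wt1KOΔEC (log2 fold change 2.21, adjusted p = 0.296). In both genes the genotypes did not overlap, with Wt1KOΔEC 1 well above the other libraries.

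Further genes of the list separated the genotypes in both directions without standing out in Wt1KOΔEC 1 alone. *Serpina3g*, a serine protease inhibitor, was at 3.49, 3.20 and 2.84 CPM in ControlΔEC and at 11.8, 19.5 and 20.9 CPM in Wt1KOΔEC (log2 fold change 2.45, standard error 0.35, adjusted p = 0.0638 by edgeR and 5.05e-07 by DESeq2). *Gbp2*, a guanylate-binding GTPase induced by interferon gamma, was at 10.4, 6.61 and 14.1 CPM in ControlΔEC and at 22.6, 21.4 and 42.0 CPM in Wt1KOΔEC (log2 fold change 1.47, adjusted p = 0.198). *Ifi203*, of the Ifi200 family of DNA-binding proteins, was at 29.3, 37.4 and 62.7 CPM in ControlΔEC and at 11.8, 5.93 and 5.82 CPM in Wt1KOΔEC (log2 fold change -2.45, standard error 0.39, adjusted p = 0.0979 by edgeR and 4.89e-07 by DESeq2). *Ifi203* and *Serpina3g* belong to families of similar copies, and their counts are uncertain to that extent. The most abundant genes of the list, *Shisa5* (log2 fold change 0.09) and *Zc3hav1* (-0.08), had adjusted p-values of 0.901 and 0.929.

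**Figure D3:**
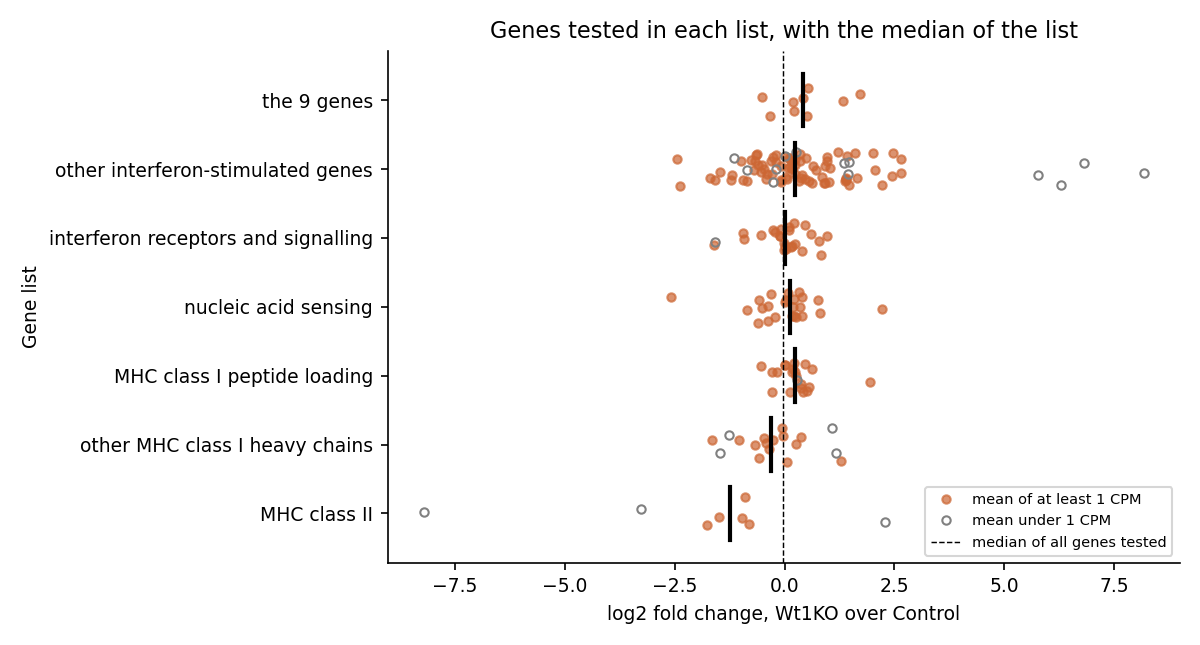
Log2 fold changes of Wt1KOΔEC over ControlΔEC for the tested genes of each list (1 point per gene, filled at a mean of at least 1 CPM, open below it), with the median of each list as a black bar and the median of all genes tested as a dashed line. The medians of the 9 genes, the other interferon-stimulated genes and the peptide loading genes lie above the dashed line and those of the other heavy chains and MHC class II below it (the class II median was 0.74 without ControlΔEC 3), within a wide spread of single genes. The outermost open points are fitted values of genes at or near 0 in a genotype.

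Interferon transcripts themselves were mostly not detectable at this depth. None of 21 ligand genes passed the filter, 16 had no count in any library, and their sum was at most 0.947 CPM, in Wt1KOΔEC 1. The next highest sum was 0.447 CPM, in ControlΔEC 1. Wt1KOΔEC 1 alone held counts of *Ifnb1*, 14 in number, a gene singled out after its values were seen. These counts were only a part of the ligand sum of that library. Of 26 receptor and signalling genes, edgeR and limma-voom called none, DESeq2 called *Jak2*, and 3 were higher and 2 lower at an unadjusted p under 0.05, against 13.1% of all genes (median log2 fold change 0.02, and 0.017 to 0.064 with 1 library at a time left out). *Socs3*, a feedback inhibitor of cytokine receptors, was at 31.2, 28.8 and 21.4 CPM in ControlΔEC and at 55.1, 51.6 and 34.0 CPM in Wt1KOΔEC (log2 fold change 0.79, adjusted p = 0.249). *Jak2*, a kinase of the interferon gamma receptor, was at 43.0, 42.6 and 62.5 CPM in ControlΔEC and at 32.2, 24.1 and 21.6 CPM in Wt1KOΔEC (log2 fold change -0.93, adjusted p = 0.209 by edgeR and 0.0215 by DESeq2). *Jak1* (log2 fold change -0.21) and *Stat3* (0.10), the most abundant genes of this list, had adjusted p-values of 0.706 and 0.923. *Ifnar1*, named for its role, was at 161 to 195 CPM in ControlΔEC and at 154 to 231 CPM in Wt1KOΔEC, so the transcript of this receptor chain was detected in every library.

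Of 24 tested genes of nucleic acid sensing, none was called by edgeR, limma-voom or DESeq2, and 3 were higher and 1 lower at an unadjusted p under 0.05, against 13.1% of all genes. Their median log2 fold change of 0.12 was not stable, since it was -0.033 without Wt1KOΔEC 1, 0.018 without Wt1KOΔEC 2 and 0.073 without ControlΔEC 2. *Traf6*, a ubiquitin ligase of Toll-like receptor signalling, had a log2 fold change of 0.80 (adjusted p = 0.302), *Rnaseh2c*, a subunit of ribonuclease H2, one of 0.77 (adjusted p = 0.278) and *Mavs*, the mitochondrial adaptor of RNA sensors, one of -0.61 (adjusted p = 0.362). *Ticam1* had a log2 fold change of -0.59 (adjusted p = 0.702). The most abundant genes of this list, *Sting1* (log2 fold change 0.26) and *Tbk1* (0.22), had adjusted p-values of 0.734 and 0.814.

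**Figure D4:**
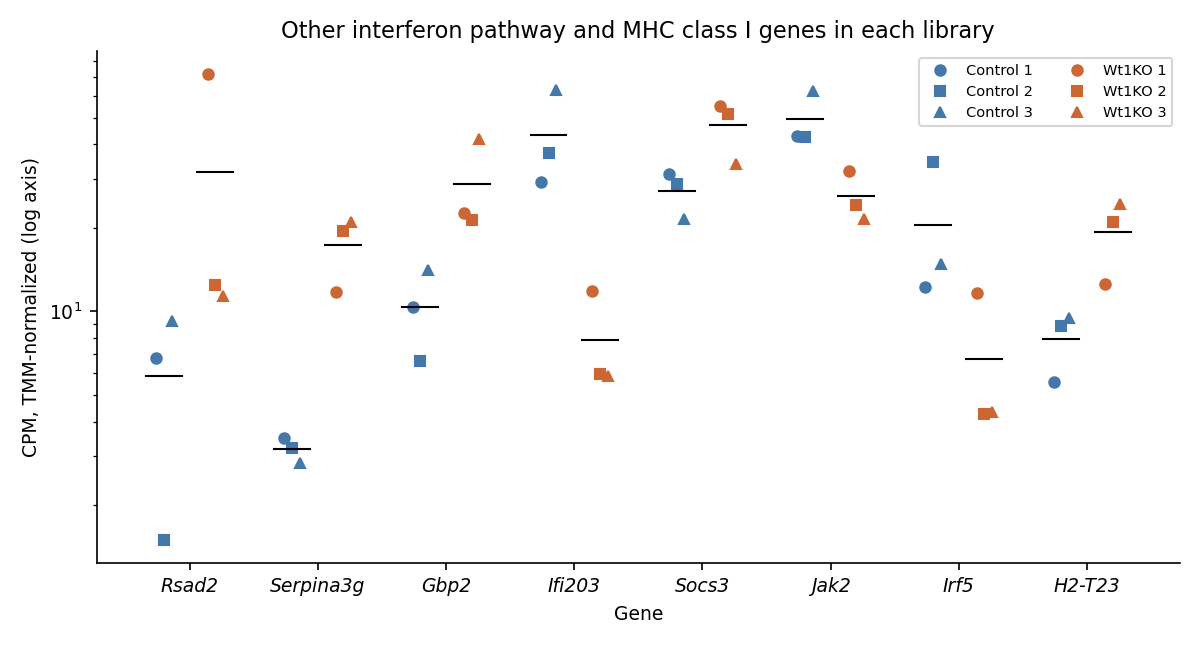
TMM-normalized CPM (log axis) of 8 other genes of the interferon and MHC class I lists in each of the 3 ControlΔEC (blue) and 3 Wt1KOΔEC (orange) libraries, with black lines at the group means. *Rsad2*, with Wt1KOΔEC 1 far above the rest, *Serpina3g*, *Gbp2*, *Socs3* and *H2-T23* are higher in all Wt1KOΔEC libraries, and *Ifi203*, *Jak2* and *Irf5* are lower there. Only genes whose genotypes do not overlap are shown, as for 10.3% (higher) and 8.97% (lower) of all genes tested. Not all such genes are shown, since *Ifih1*, *Traf6*, *Rnaseh2c*, *Calr*, *Pdia3* and *Erap1*, among others, do not overlap either. Named genes that overlap are not shown, among them *Mavs*, *Ticam1*, *Shisa5*, *Zc3hav1*, *Jak1* and *Stat3*.

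In the remainder of the class I pathway, 18 of 23 listed heavy chain and related genes were tested, and edgeR and limma-voom called none, with 1 higher and 1 lower at an unadjusted p under 0.05, against 13.1% of all genes. DESeq2 called *H2-T23* higher and *H2-Q7* lower, and the median log2 fold change was -0.31. That median was -0.058 without Wt1KOΔEC 2 and -0.16 without ControlΔEC 1. *H2-T23*, which encodes the non-classical chain Qa-1, was at 5.57, 8.82 and 9.43 CPM in ControlΔEC and at 12.6, 21.0 and 24.4 CPM in Wt1KOΔEC (log2 fold change 1.28, standard error 0.35, adjusted p = 0.209 by edgeR and 0.037 by DESeq2). *H2-Q7*, named after its values were seen, was at 13.2, 15.2 and 6.04 CPM in ControlΔEC and at 4.20, 2.67 and 4.16 CPM in Wt1KOΔEC (log2 fold change -1.64, adjusted p = 0.217). *H2-T22* (log2 fold change 0.26), *Cd1d1* (-0.06) and the neonatal Fc receptor gene *Fcgrt* (0.05) had adjusted p-values of 0.858, 0.964 and 0.971.

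All 21 peptide loading genes were tested, with none called by edgeR, limma-voom or DESeq2, 3 higher and 1 lower at an unadjusted p under 0.05, against 13.1% of all genes, and a median log2 fold change of 0.23. That median was 0.13 without ControlΔEC 1, 0.082 without ControlΔEC 2, 0.38 without ControlΔEC 3 and 0.15 without Wt1KOΔEC 3. *Calr*, the chaperone calreticulin, was at 329.9, 282 and 313 CPM in ControlΔEC and at 453, 499 and 401 CPM in Wt1KOΔEC (log2 fold change 0.55, standard error 0.15, adjusted p = 0.217 by edgeR and 0.00955 by DESeq2). The genotypes did not overlap for *Calr*, and its fold change was under the limit for a call. *Pdia3*, a disulfide isomerase of the loading complex, had a log2 fold change of 0.43 (adjusted p = 0.306), *Canx*, calnexin, one of 0.23 (adjusted p = 0.7) and *Tap1*, the peptide transporter subunit, one of 0.47 (adjusted p = 0.732). *Nfya* had a log2 fold change of 0.51 (adjusted p = 0.576). *Erap1*, which trims peptides in the endoplasmic reticulum, was at 32.0, 32.8 and 39.8 CPM in ControlΔEC and at 22.7, 23.4 and 25.7 CPM in Wt1KOΔEC (log2 fold change -0.54, adjusted p = 0.299).

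Several lists of markers of other cells differed with genotype, and their part in the differences above was not tested. EdgeR called 1 endocardial and 1 fibroblast marker higher and no other listed marker, where 0.0736% of all genes were called. An unadjusted p under 0.05 was found for 38.9% of tested leukocyte, 42.9% of lymphatic and 57.1% of endocardial markers. It was found for 60% of fibroblast, 20% of epicardial and 44.4% of mural markers, against 13.1% of all genes. Leukocyte markers, of which 18 of 24 were tested, summed to 524 to 1384 CPM in ControlΔEC and to 376 to 581 CPM in Wt1KOΔEC. These sums overlapped between the genotypes, and all 18 markers had negative log2 fold changes. The macrophage markers *Csf1r* and *Adgre1* had means of 195 and 52.9 CPM in ControlΔEC and of 73.9 and 19.03 CPM in Wt1KOΔEC, while *Cd3e*, *Ncr1* and *Nkg7* had no count. The leukocyte sum was highest in ControlΔEC 2, the library in which *Irf5*, an interferon regulatory factor of myeloid cells, reached 34.5 CPM beside 12.2 and 14.8 CPM in the other two (log2 fold change -1.61, adjusted p = 0.263). MHC class II genes, with 8 of 11 tested, had a median log2 fold change of -1.23 and none called by edgeR, limma-voom or DESeq2. At an unadjusted p under 0.05, 1 was lower, against 13.1% of all genes. Only 1 class II gene had 10 counts in every library, so these medians come mostly from genes of low counts. The median of -1.23 rested on ControlΔEC 3. Without that library it was 0.74 with 2 higher and 0 lower of 6 tested at an unadjusted p under 0.05, against 15.7% of all genes. It was -2.11 without Wt1KOΔEC 2 and -0.49 with limma-voom. *Cd74*, the invariant chain, was at 3.33, 11.8 and 25.3 CPM in ControlΔEC and at 8.52, 8.57 and 4.51 CPM in Wt1KOΔEC (log2 fold change -0.90, adjusted p = 0.623).

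Several other marker sums were, like *Bst2*, *Ifitm2* and *Ifitm3*, higher in every Wt1KOΔEC library. Lymphatic endothelial markers, all 7 tested and detected, had positive log2 fold changes. They summed to 336 to 373 CPM in ControlΔEC and to 467 to 685 CPM in Wt1KOΔEC. Endocardial markers (7 of 7, with 6 positive and 1 negative) summed to 453 to 538 and 766 to 995 CPM, of which *Plvap* gave means of 68.1 and 338 CPM. Fibroblast markers (10 of 10, with 8 positive and 2 negative) summed to 694 to 1004 and 1365 to 1576 CPM. Of these, the paper names *Col1a1*, *Col3a1* and *Dcn* as venous markers overexpressed in the mutant ECs. Epicardial markers (10 of 10, with 8 positive and 2 negative) summed to 11.7 to 19.8 and 21.2 to 59.1 CPM. Mural markers (9 of 10, with 2 positive and 7 negative) summed to 469 to 639 CPM in ControlΔEC and to 330 to 387 CPM in Wt1KOΔEC. Sums of cardiomyocyte, erythroid and platelet markers overlapped between the genotypes. In such bulk libraries a smaller number of cells of a type and less RNA per cell cannot be told apart.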

How the data were processed

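RNA-Seq libraries of sorted ECs from 3 ControlΔEC and 3 Wt1KOΔEC samples were analysed. Per the paper's methods, the authors aligned reads with STAR 2.7.8a to GRCm39 and quantified GENCODE vM27 genes with RSEM 1.3.0, whereas the submitters' processing notes name GRCm38. The deposited values are RSEM expected counts given as whole numbers, without normalization. RSEM divides reads among similar genes, and the libraries do not keep strand.

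Counts were analysed in R 4.3.3. The filter was 10 counts in 2 or more libraries, and genotypes were compared with edgeR 4.0.16 (TMM, quasi-likelihood F test, Benjamini-Hochberg adjustment over 16296 genes). DESeq2 1.42.0 and limma-voom (limma 3.58.1) were alternatives. Calls required an adjusted p under 0.05 and a log2 fold change beyond 0.58 in either direction. Standard errors were derived from the fold change and its F statistic. P-values measure the spread between these libraries, and counts of 0 allow up to 3 counts per library, for counting error only. Positions, overlaps and exonic lengths are of GENCODE vM39 on GRCm39, which covered 99.6% of tested genes. Scripts were tested on simulated data.

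From each list up to 4 genes with the largest changes and up to 2 with the highest means were named, at a mean of at least 10 CPM, as were the 3 genes most correlated with *Bst2*, *Ifitm3* and *B2m*. A gene named by this rule is not reported here. The 9 genes and the lists were chosen with earlier results of these data known. Alternatives were other tests, scalings and filters, a replicate block, an offset for length and GC content, summed families, other call limits, single libraries left out and, added after seeing the data, a fit that left out *Rn18s* and mitochondrially encoded genes.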

Additional observations from a re-analysis of the deposited data

How the results depend on the processing

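The 12 genes called over the whole table became 599 with DESeq2, 296 without a filter, 113 with 10 counts in every library and 1652 at an unadjusted p. They became 5 with the replicate block, 6 with the length and GC offset, 5 with both, and 2 to 37 with single libraries left out. Counts at an unadjusted p in this section keep the fold change limit. Those given in the Results do not, so the counts differ between the sections. Of the 9 genes none was called in the reported fit, and 1 (*Bst2*) with DESeq2 (log2 fold change 1.33), without a filter (1.33), with 10 counts in every library (1.31) and at an unadjusted p. Other interferon-stimulated genes called numbered 7 with DESeq2, 5 without a filter, 3 with 10 counts in every library and 20 at an unadjusted p. With DESeq2 and at an unadjusted p, 1 and 4 receptor and signalling genes and 2 and 2 other heavy chains were called. At an unadjusted p, 4 sensing genes, 1 peptide loading gene and 1 class II gene were called. No gene of the 9 or of the lists was called with any single library left out. Replicate numbers did not pair the samples (correlations of 0.057, 0.004 and 0.020 for equal numbers), and the replicate block called 0 of the 9.

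The sign reversed for *Ifitm1* without ControlΔEC 3 or Wt1KOΔEC 2 (single libraries left out spanned -1.42 to 0.90) and in the IFITM sum (0.51). It reversed for *Irf7* with limma-voom (-0.73), with the block and offset together (-0.14) and without Wt1KOΔEC 3 (-0.33 to 0.97 over single libraries left out). It reversed for *H2-D1* without ControlΔEC 3 or Wt1KOΔEC 2 (-0.12 to 0.39) and in the heavy chain sum (-0.021). The cause was not tested. *Bst2*, *Ifitm2*, *Ifitm3*, *Isg15*, *B2m* and *H2-K1* kept their sign in all 18 alternative fits. With library size alone as the scaling, the median log2 fold change of all genes was -0.18, and *Ifitm2* and *Ifitm3* had 0.37 and 0.36. *Ifitm1*, *Isg15* and *Irf7* rest on low counts, with as few as 17, 28 and 6 in a library, each time Wt1KOΔEC 2. That library was not the shallowest (37015947 counts, beside 26037324 in Wt1KOΔEC 3).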
